A study of Mus musculus with 54 samples.

Results

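The genes that carry the output of the circadian clock were followed in the hearts and livers of mice whose mitochondrial translation was either error-prone or hyper-accurate. They were found by gene name in the deposited heart and liver tables, where all 9 of 9 occurred among 54356 genes. Their names were chosen with earlier results of these data known. They are the PAR-bZIP activators Dbp, Tef and Hlf, the repressor Nfil3, the E-box repressors Bhlhe40, Bhlhe41 and Ciart, and the outputs Wee1 and Usp2. The mice were homozygous for an error-prone allele (Mrps12ep/ep) or a hyper-accurate allele (Mrps12ha/ha) of Mrps12, which encodes a protein of the small subunit of the mitochondrial ribosome, or were wild type (Mrps12+/+). All were male C57BL/6 mice aged 20 weeks on a high-fat diet (HFD) with 42% of its energy as fat, so that no group on normal chow enters here. They lived under 12 h of light, from 7 am, and 12 h of dark, and the hour of tissue collection is not given in the sources used here. RNA from 3 mice of each genotype was sequenced for each tissue, with 3 technical libraries per mouse that the deposited tables hold as 1 column.

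In the circadian clock, ARNTL (BMAL1) pairs with CLOCK or NPAS2 and activates genes through E-boxes, and the PER and CRY proteins close the loop by repressing that activity. Dbp is a direct E-box target, and DBP, TEF and HLF in turn drive genes that hold D-boxes, many of them enzymes of drug and lipid metabolism in the liver. NFIL3 (E4BP4) binds the same D-boxes as a repressor and is in most tissues abundant at the opposite time of day to DBP, while BHLHE40 and BHLHE41 (DEC1 and DEC2) and CIART (CHRONO) repress at E-boxes.

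The promoter windows of these genes are shown because E-boxes and D-boxes are the sites through which the family is wired together. RefSeq windows of 300 bases on GRCm38.p6, from 250 before to 50 after a start site, were matched for 7 of the 9 genes, with 2 windows for Tef. Both strands were searched for the E-box CACGTG and for the D-box as TTATGTAA or TTATGCAA. The E-box letters occurred in 4 of the 8 windows, against 7.15% of all 32851 windows, and the D-box letters in 0 of the 8, against 1.66%. These matches are a description of letters and no evidence of binding. Ciart had 3 E-boxes, which began 116, 58 and 44 bases before the start site. Bhlhe41 had 1, at 153 bases before it, and the windows of Tef had 1 each, at 127 and 138 bases. The windows of Dbp, Hlf, Nfil3 and Usp2 had neither set of letters. The sequences below run 5′ to 3′ on the strand of the gene, with E-boxes in capitals, and Dbp, whose window lacks them, is given beside Tef because both were higher in Mrps12ha/ha mice in both tissues.
Ciart, chr3:95882179-95882478, minus strand: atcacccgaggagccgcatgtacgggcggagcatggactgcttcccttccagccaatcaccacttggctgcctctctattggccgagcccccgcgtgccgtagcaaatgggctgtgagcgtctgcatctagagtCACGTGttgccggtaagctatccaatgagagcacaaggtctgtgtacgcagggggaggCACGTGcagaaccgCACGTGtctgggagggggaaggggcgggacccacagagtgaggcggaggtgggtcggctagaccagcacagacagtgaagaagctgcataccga
Tef, chr15:81802423-81802722, plus strand: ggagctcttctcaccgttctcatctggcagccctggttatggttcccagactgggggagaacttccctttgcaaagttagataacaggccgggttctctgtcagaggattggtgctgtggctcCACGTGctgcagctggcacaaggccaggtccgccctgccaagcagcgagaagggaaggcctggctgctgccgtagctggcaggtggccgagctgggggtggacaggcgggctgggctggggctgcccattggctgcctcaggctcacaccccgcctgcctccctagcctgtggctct
Tef, chr15:81811164-81811463, plus strand: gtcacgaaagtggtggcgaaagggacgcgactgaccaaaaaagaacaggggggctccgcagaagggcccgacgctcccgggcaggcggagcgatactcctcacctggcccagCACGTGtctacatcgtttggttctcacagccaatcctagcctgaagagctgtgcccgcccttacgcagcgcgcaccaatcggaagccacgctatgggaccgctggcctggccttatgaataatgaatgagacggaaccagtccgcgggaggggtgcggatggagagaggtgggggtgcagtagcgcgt
Bhlhe41, chr6:145865371-145865670, minus strand: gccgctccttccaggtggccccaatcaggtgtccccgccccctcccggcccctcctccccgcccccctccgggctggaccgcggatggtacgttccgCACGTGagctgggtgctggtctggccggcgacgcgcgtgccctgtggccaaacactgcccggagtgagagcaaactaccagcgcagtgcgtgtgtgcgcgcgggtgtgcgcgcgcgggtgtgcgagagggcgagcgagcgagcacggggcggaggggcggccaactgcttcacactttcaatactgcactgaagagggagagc
Dbp, chr7:45704997-45705296, plus strand: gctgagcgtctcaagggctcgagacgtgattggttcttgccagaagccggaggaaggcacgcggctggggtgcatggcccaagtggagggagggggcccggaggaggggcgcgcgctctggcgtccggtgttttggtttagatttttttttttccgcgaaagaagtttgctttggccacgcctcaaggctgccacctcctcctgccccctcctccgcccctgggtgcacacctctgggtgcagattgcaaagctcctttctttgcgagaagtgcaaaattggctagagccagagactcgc

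Every member was well measured in both tissues. The heart columns held 11203147 to 51485831 reads on genes and the liver columns 21237904 to 81524994, and the lowest value of any member in any mouse rested on 55 reads, for Bhlhe41 in the liver. The shallowest column was the heart of Mrps12ha/ha mouse 2, where 1 read equalled 3.02 normalized counts. All 9 genes had a mean above 10 normalized counts in both tissues, the minimum for testing. The 5 cardiomyocyte markers summed to between 1759000 and 2989000 normalized counts in the hearts and to at most 6550 in the livers, and the 5 hepatocyte markers to between 4323000 and 6346000 in the livers and to at most 15080 in the hearts, so the labels held. Markers of these and other cells moved with genotype. The cardiomyocyte sum was 2195000 to 2989000 in Mrps12ha/ha and 1759000 to 2180000 in Mrps12ep/ep hearts, with 1 of the 5 genes higher in every Mrps12ha/ha mouse. In Mrps12+/+ hearts it was 1901000 to 2199000, which overlapped with Mrps12ha/ha. Against these hearts 1 of the 5 genes was higher and 1 lower in every Mrps12ha/ha mouse. In the heart the sum of 5 skeletal muscle markers was 3002 to 3352 in Mrps12ha/ha mice and 7024 to 37670 in Mrps12+/+ mice, with 2 of the 5 genes lower in every Mrps12ha/ha mouse, and the sum of 3 mesothelial markers was 305.7 to 504.4 against 785.4 to 1448, with 2 of the 3 lower. Both sums were also lower in every Mrps12ha/ha than in every Mrps12ep/ep heart. The sum of 5 erythroid markers ran from 199200 to 1412000 in Mrps12ha/ha, from 134400 to 219900 in Mrps12ep/ep and from 91860 to 235600 in Mrps12+/+ hearts, with overlap. In the liver the hepatocyte sum was 5476000 to 6346000 in Mrps12ha/ha, 5886000 to 5942000 in Mrps12ep/ep and 4323000 to 5236000 in Mrps12+/+ mice, with 1 of the 5 genes, in each mutant, higher in every mouse. Of 4 white adipocyte markers 2 were lower in every liver of each mutant than in any Mrps12+/+ liver. No marker was at 0 in all mice of a tissue. Their part in the results below was not tested, and in bulk tissue fewer cells of a type and less RNA per cell cannot be told apart.

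The members differed in level within wild-type tissue. On the RPKM scale, reads per kilobase of exon scaled to the column total, Usp2 was the most abundant in Mrps12+/+ hearts at 41.4 ± 9.31 (SD, n = 3), above Dbp at 19.4 ± 2.95, Tef at 17.4 ± 3.01 and Bhlhe40 at 17.1 ± 1.29, whose ranges overlapped one another. Nfil3, Ciart and Hlf followed at 8.32, 5.67 and 4.97 RPKM, and Wee1 and Bhlhe41 were lowest at 3.95 and 3.63 RPKM, each pair of neighbours among these 5 overlapping except Nfil3 and Ciart. In Mrps12+/+ livers the order led with Bhlhe40 at 26.7 ± 6.47 RPKM and Dbp at 24.9 ± 6.99, which overlapped. Ciart, Nfil3 and Tef came next at 16.4, 16.2 and 14.3 RPKM with overlapping ranges, of which those of Ciart and Nfil3 reached that of Dbp, then Hlf at 8.21 and Usp2 at 6.66, which did not overlap. Wee1 at 1.82 RPKM and Bhlhe41 at 0.236 ± 0.0725 stood below all the others. Over all 9 mice the widest range was that of Bhlhe41 in the liver, 11.8-fold from the lowest to the highest mouse, followed by Wee1 in the liver at 4.60-fold and Dbp in the liver at 3.82-fold.

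**Figure D1:**
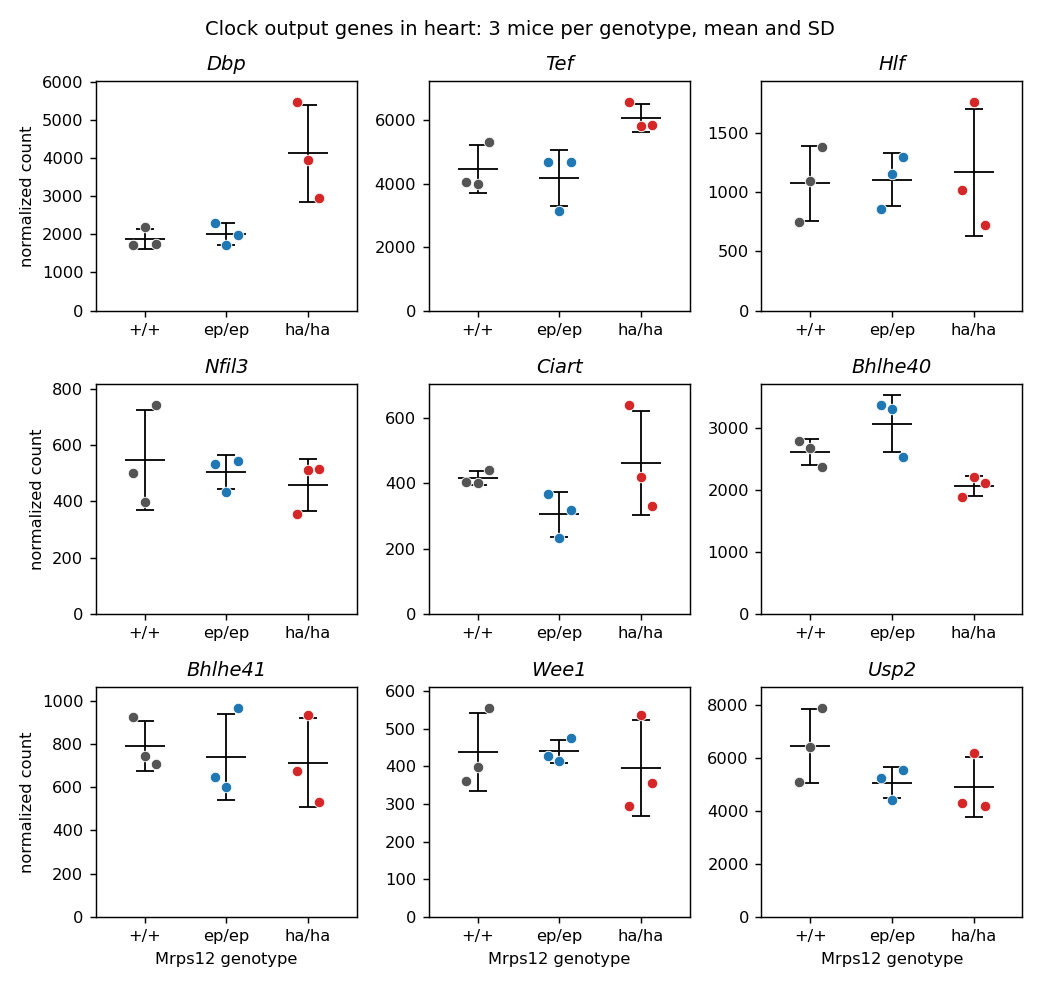
Normalized counts of the 9 clock output genes (vertical axes, linear and starting at 0) in 9 hearts, by Mrps12 genotype. Points are mice, horizontal bars the mean and whiskers the SD of 3 mice. The Mrps12ha/ha points of Dbp and Tef lie above all the others and those of Bhlhe40 below all the others.

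**Figure D2:**
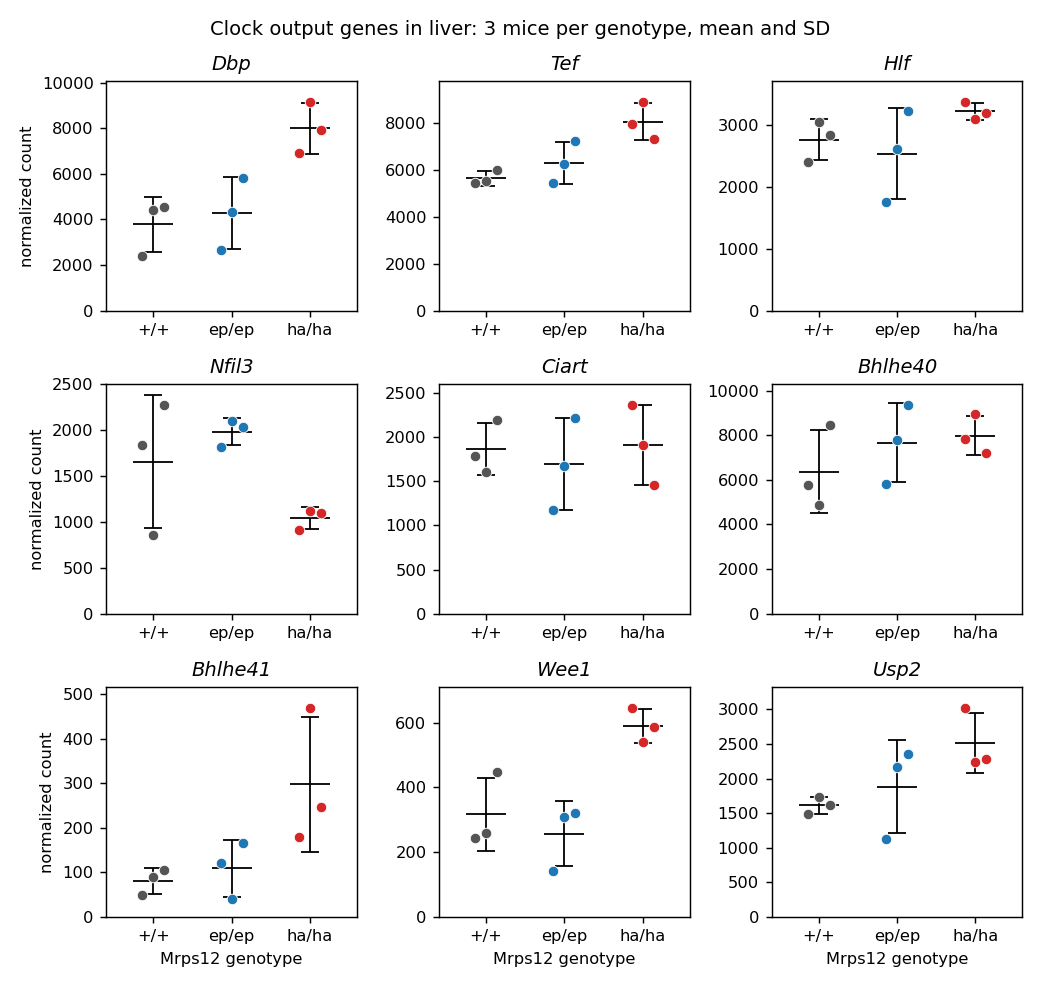
The same 9 genes in 9 livers, with axes and marks as for the hearts. The Mrps12ha/ha points lie above all the others for Dbp, Tef, Bhlhe41 and Wee1, and no member separates Mrps12ep/ep from Mrps12+/+ mice. For Bhlhe41 the lowest Mrps12ha/ha and the highest Mrps12ep/ep points rest on 75 reads each.

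The first question was whether hyper-accurate translation went with a different level of clock output transcripts on the HFD. Each column holds 1 mouse at an hour that is not given. A different level, a different phase of the clock and a different hour of collection therefore cannot be told apart in any comparison here. Dbp was 2.13-fold higher in Mrps12ha/ha hearts and 2.18-fold higher in Mrps12ha/ha livers than in Mrps12+/+, and Tef was higher as well, with every Mrps12ha/ha mouse above every Mrps12+/+ mouse. In the liver Bhlhe41, Wee1, Usp2 and Hlf were also higher in every Mrps12ha/ha mouse, whereas in the heart Bhlhe40 was lower in every one. For Hlf this held in normalized counts and not on the RPKM scale. None of these differences passed the test across all genes, limma on log2(normalized count + 1) with Benjamini-Hochberg adjustment over 16057 genes in the heart and 15314 in the liver and a threshold of 0.05. In the heart 0 of 9 members had an adjusted p under the threshold, against 0.0311% of all genes, and 3 had an unadjusted p under it, against 19.7%. The groups did not overlap for 3 of 9 members, against 21.2% of all genes, so that the number of members that separated was not far from the background of this comparison. In the liver 0 of 9 members passed the adjusted threshold, against 0.00653% of all genes. There 5 of 9 passed it unadjusted, against 14.1%, and the groups did not overlap for 6 of 9, all higher in Mrps12ha/ha, against 19.9%. The median log2 fold change of the members was -0.17 in the heart, where that of all genes was -0.02, and 0.51 in the liver, where that of all genes was -0.02. With 3 mice against 3 the exact permutation test cannot give a p below 0.1, which each of the separated members had.

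Dbp, the PAR-bZIP activator with the widest daily swing in most tissues, was higher in Mrps12ha/ha mice by nearly the same fold in both tissues. Its gene lies on chromosome 7 at 45705088 to 45710203 on the plus strand (GRCm38), 16.96 Mb from Mrps12 on the same chromosome. In the heart it had 1731.7, 2192.4 and 1735.1 normalized counts in the Mrps12+/+ mice, 2301.2, 1729.8 and 1977.9 in the Mrps12ep/ep mice, and 5470.7, 3941.2 and 2945.3 in the Mrps12ha/ha mice. The lowest Mrps12ha/ha heart was thus above the highest of the other 6, and the Mrps12ep/ep hearts covered nearly the same range as the Mrps12+/+ hearts. The log2 fold change of Mrps12ha/ha against Mrps12+/+ hearts was 1.09 ± 0.22 (SE), a fold of 2.13, with an adjusted p = 0.159 from limma. Without the shallow heart of Mrps12ha/ha mouse 2 the estimate was 1.098 and its adjusted p = 0.0156, and with limma array weights, which let columns count unequally, 0.88 with an adjusted p = 0.00993. These settings were not particular to Dbp, since 27% of all genes passed the adjusted threshold without that mouse and 34.7% with array weights. Over all alternatives its adjusted p ran from 0.00993 to 0.451.

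In the liver Dbp had 2392.7, 4431.3 and 4525.6 normalized counts in Mrps12+/+, 2652.1, 4342.3 and 5812.7 in Mrps12ep/ep and 6925.9, 9149.4 and 7898.8 in Mrps12ha/ha mice. Again no Mrps12ha/ha mouse overlapped with any other mouse, and the ranges of the other 2 genotypes overlapped, with the highest Mrps12ep/ep liver above every Mrps12+/+ liver. The log2 fold change of 1.13 ± 0.31 (SE) had an adjusted p = 0.182 from limma, with a range of 0.0835 to 0.464 over the alternatives. Dbp overlaps the 3′ end of Sphk2 on the opposite strand. The authors counted with strand, and Sphk2 was lower in every Mrps12ha/ha heart, at a log2 fold change of -0.29, and higher in every Mrps12ha/ha liver, at 0.27.

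Tef, the second PAR-bZIP activator, showed a smaller difference in the same direction. Its heart values were 4054.2, 3981.7 and 5323.6 normalized counts in Mrps12+/+, 4686.6, 3144.8 and 4678.8 in Mrps12ep/ep and 6571.5, 5798.6 and 5844.3 in Mrps12ha/ha mice. Its liver values were 5429.1, 5512.4 and 6012.6, then 5439, 6241.7 and 7239.8, and then 7958.8, 8902.3 and 7336.3 in the same order of genotypes. In both tissues all 3 Mrps12ha/ha mice were above the other 6. The log2 fold changes against Mrps12+/+ were 0.46 ± 0.18 (SE) in the heart and 0.51 ± 0.12 (SE) in the liver, with adjusted p of 0.225 and 0.138 from limma.

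Hlf, the third activator of the family, separated in normalized counts in the liver only, and there only from Mrps12+/+. It had 2404.6, 3046.9 and 2835.5 normalized counts in Mrps12+/+, 1761.5, 2617.8 and 3224.8 in Mrps12ep/ep and 3372.5, 3102.8 and 3194.1 in Mrps12ha/ha livers, a log2 fold change of 0.23 with a 95% interval of -0.21 to 0.67. On the RPKM scale the groups overlapped, at 8.347 to 9.986 in Mrps12ha/ha and 7.585 to 9.106 in Mrps12+/+ livers. In the heart the Mrps12ha/ha mice held both the lowest and the highest value of all, 721.3 and 1763.7, beside 1017.9, and the Mrps12+/+ mice ran from 749.2 to 1383.6. The log2 fold change there was 0.06 with an interval of -0.68 to 0.81, and it was below 0 without the shallow Mrps12ha/ha heart, at -0.28. The difference between the tissues was not tested for any member, because the heart and liver tables were normalized separately.

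Nfil3, the repressor at the same D-boxes, had no clear direction by itself. In the heart it was 502, 398 and 743.4 normalized counts in Mrps12+/+, 534.9, 434.3 and 544.9 in Mrps12ep/ep and 353.4, 510.4 and 513.8 in Mrps12ha/ha mice, and all groups overlapped (log2 fold change of Mrps12ha/ha against Mrps12+/+ -0.23 ± 0.24 SE). In the liver it was 1835.8, 858.8 and 2273 in Mrps12+/+, 1818.7, 2094.6 and 2033 in Mrps12ep/ep and 909.2, 1121.4 and 1093.8 in Mrps12ha/ha mice. The Mrps12ha/ha livers were tightly grouped at about the level of the lowest Mrps12+/+ liver, that of mouse 2, and below every Mrps12ep/ep liver. The log2 fold change against Mrps12+/+ was -0.56 ± 0.30 (SE) with an adjusted p = 0.431 from limma, and without Mrps12+/+ mouse 2 it was -0.98 with an adjusted p = 0.039, where 0.588% of all genes passed, in a range of 0.039 to 0.743 over the alternatives.

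Because DBP and NFIL3 compete for D-boxes, the log2 ratio of their transcripts was taken within each mouse. It averaged 1.82 ± 0.62 (SD, n = 3) in Mrps12+/+, 1.98 ± 0.12 in Mrps12ep/ep and 3.14 ± 0.74 in Mrps12ha/ha hearts, and 1.25 ± 1.02, 1.04 ± 0.49 and 2.94 ± 0.09 in the livers. In both tissues every Mrps12ha/ha mouse had a higher ratio than every other mouse. The difference from Mrps12+/+ was 1.32 in the heart and 1.69 in the liver, each with p = 0.1 in the exact two-sided permutation test, the smallest that 3 against 3 allows. The difference of Mrps12ep/ep from Mrps12+/+ was 0.16 in the heart (exact p = 0.7) and -0.21 in the liver (exact p = 0.9), and its sign changed in both when single mice were left out.

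**Figure D3:**
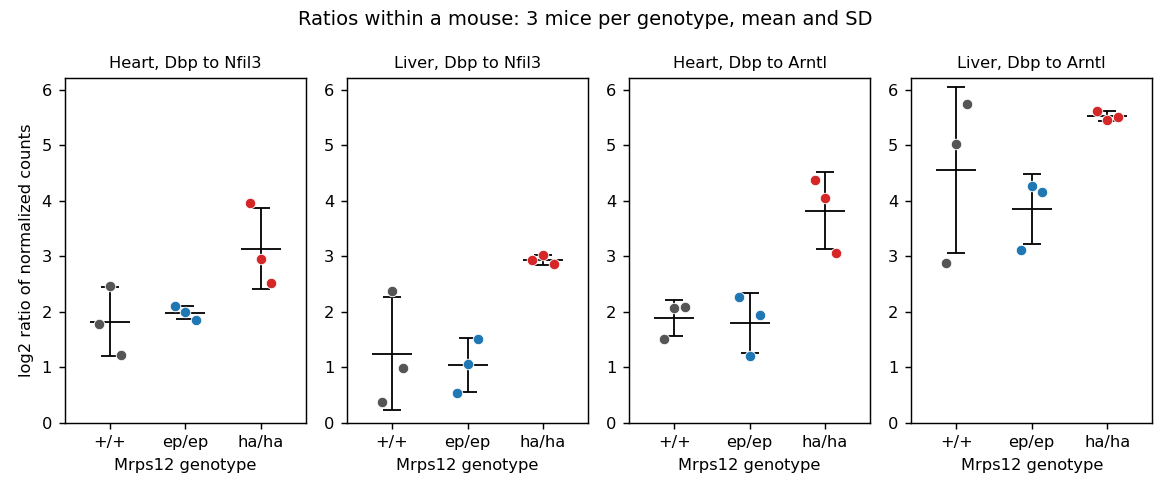
Log2 ratio of the normalized counts of Dbp to Nfil3 and of Dbp to Arntl within each mouse, by genotype and tissue, with 1 point per mouse, the mean and the SD of 3 mice. The Mrps12ha/ha mice lie above all the others in 3 of the 4 panels, and in the liver ratio of Dbp to Arntl they overlap with the Mrps12+/+ mice.

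Among the repressors that act at E-boxes, Bhlhe40 and Bhlhe41 had estimates of opposite sign in the 2 tissues and Ciart showed no difference between Mrps12ha/ha and Mrps12+/+ mice beyond the spread. Bhlhe40 in the heart had 2786.6, 2674.3 and 2376.6 normalized counts in Mrps12+/+, 3377, 3314.7 and 2541 in Mrps12ep/ep and 1888.6, 2204.7 and 2112.7 in Mrps12ha/ha mice. All Mrps12ha/ha hearts were below all others, at a log2 fold change against Mrps12+/+ of -0.34 ± 0.14 (SE) and an adjusted p = 0.23 from limma. In the liver, where Bhlhe40 had 4873.6 to 8442.9 normalized counts in Mrps12+/+ and 7189.7 to 8930.3 in Mrps12ha/ha mice, the groups overlapped and the log2 fold change was 0.36 with an interval of -0.14 to 0.86.

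Bhlhe41 had the largest fold of all members in the liver, at the lowest level of all. It had 49, 88.9 and 104.4 normalized counts in Mrps12+/+, 119.9, 39.8 and 166.5 in Mrps12ep/ep and 178.5, 468.9 and 246.4 in Mrps12ha/ha livers. Each Mrps12ha/ha liver exceeded the other 6, and Mrps12ha/ha mouse 2 exceeded the remaining pair of its own group as well. The lowest Mrps12ha/ha liver, at 178.5, and the highest Mrps12ep/ep liver, at 166.5, rested on 75 reads each. Their order therefore came from the scaling of the columns alone. The log2 fold change against Mrps12+/+ was 1.82 ± 0.55 (SE), with a 95% interval of 0.58 to 3.06 and an adjusted p = 0.21 from limma. In the heart, where it was far more abundant, Bhlhe41 ran from 708.1 to 924.9 in Mrps12+/+ and from 531.1 to 936.2 in Mrps12ha/ha mice, with a log2 fold change of -0.18 ± 0.24 (SE). Ciart had 403.9, 402.3 and 442.1 normalized counts in Mrps12+/+, 368.5, 231.4 and 316.9 in Mrps12ep/ep and 640.6, 419.8 and 330.6 in Mrps12ha/ha hearts, so that the mutant with the lower values was Mrps12ep/ep. In the liver it ran from 1610 to 2194.7, from 1177.5 to 2219.4 and from 1452.5 to 2363.4 in the same order, and the log2 fold change of Mrps12ha/ha against Mrps12+/+ was 0.02 with an interval of -0.53 to 0.57.

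Wee1, a kinase that holds cells before mitosis and is under clock control in the liver, was higher in Mrps12ha/ha livers. It had 242.8, 259.6 and 446.8 normalized counts in Mrps12+/+, 140.3, 308.6 and 321.8 in Mrps12ep/ep and 645, 539.2 and 585.4 in Mrps12ha/ha mice. The Mrps12ha/ha livers were close together and above every other liver, at a log2 fold change against Mrps12+/+ of 0.95 ± 0.33 (SE) and an adjusted p = 0.263 from limma. In the heart Wee1 ran from 360.8 to 555.3 in Mrps12+/+ and from 294.5 to 537.6 in Mrps12ha/ha mice, with a log2 fold change of -0.17 ± 0.24 (SE). Wee1 lies 81.38 Mb from Mrps12 on chromosome 7.

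Usp2, a deubiquitinase that acts on clock proteins, differed in sign between the tissues. In the liver it had 1486, 1737.7 and 1617.5 normalized counts in Mrps12+/+, 1118.7, 2172.6 and 2361.5 in Mrps12ep/ep and 3020.3, 2242.8 and 2279.1 in Mrps12ha/ha mice, a log2 fold change of 0.63 ± 0.26 (SE) with an adjusted p = 0.318 from limma. In the heart it had 5091, 6430.2 and 7895.1 in Mrps12+/+, 5246.3, 4409 and 5535.1 in Mrps12ep/ep and 4287.1, 6212.3 and 4208.8 in Mrps12ha/ha mice. The Mrps12ha/ha livers were above all Mrps12+/+ livers, while in the heart the shallow Mrps12ha/ha mouse 2 lay inside the Mrps12+/+ range and the other 2 mice of its group below it. The heart log2 fold change of -0.40 ± 0.20 (SE) had an adjusted p = 0.284 from limma, which was 0.0434 without that mouse and 0.0147 with array weights, in a range of 0.0147 to 0.608, beside the 27% and 34.7% of all genes that passed under these settings. Without that heart 6 of 9 members in place of 3 separated Mrps12ha/ha from Mrps12+/+, the others being Bhlhe41, Wee1 and Usp2, all lower, and 58.3% of all genes separated in place of 21.2%.

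**Figure D4:**
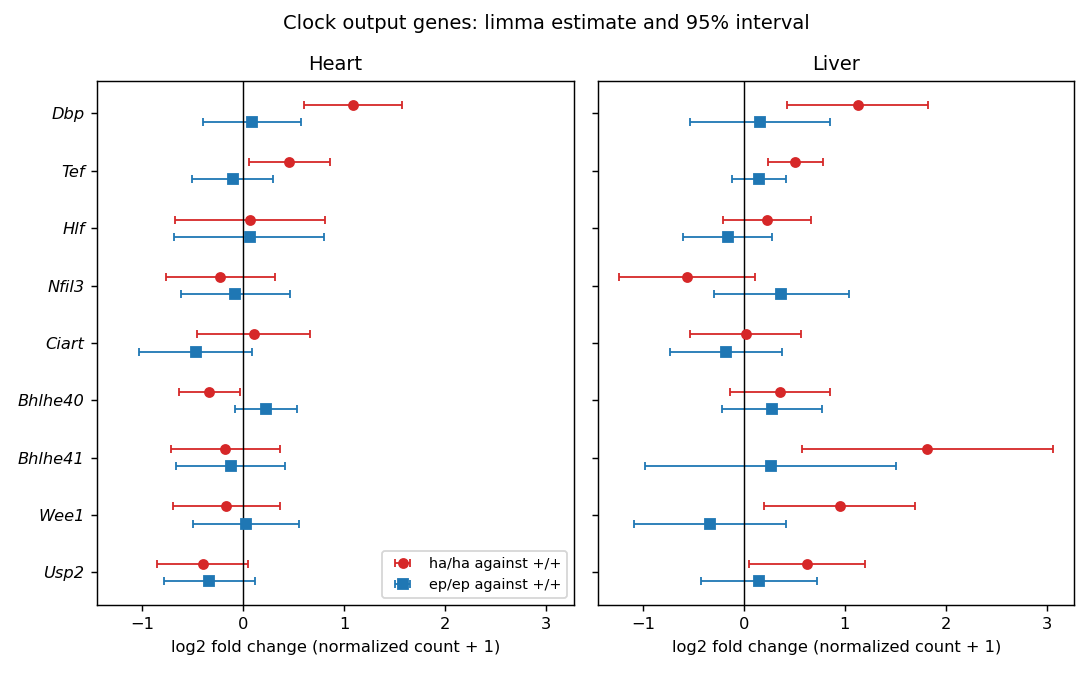
Log2 fold changes of the 9 members against Mrps12+/+ in heart and liver (horizontal axis, log2 of normalized count + 1), for Mrps12ha/ha (circles) and Mrps12ep/ep (squares), with 95% intervals from limma. The Mrps12ep/ep estimates lie between -0.47 and 0.37 and all their intervals cross 0. The intervals of Mrps12ha/ha lie above 0 for Dbp and Tef in both tissues and for Bhlhe41, Wee1 and Usp2 in the liver.

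Error-prone translation was set against the Mrps12+/+ mice used above, and the 2 comparisons therefore share their controls. No member stood out in Mrps12ep/ep mice except Ciart in the heart, which was lower in all 3 mice at a log2 fold change of -0.47 ± 0.25 (SE) and an adjusted p = 1.0 from limma. In the heart 0 of 9 members passed the adjusted threshold, against 0.0% of all genes, 0 passed it unadjusted, against 1.69%, and 1 of 9 separated, against 8.03%. In the liver 0 of 9 members passed adjusted, against 0.00653%, 0 passed unadjusted, against 9.74%, and 0 separated, against 12.8%. The log2 fold change of Dbp was 0.09 with a 95% interval of -0.40 to 0.57 in the heart and 0.16 with an interval of -0.54 to 0.86 in the liver, and that of Tef was -0.11 (-0.51 to 0.30) and 0.15 (-0.12 to 0.42).

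The difference between the 2 mutants was tested directly. In the heart Dbp was 1.004 ± 0.22 (SE) higher on the log2 scale in Mrps12ha/ha than in Mrps12ep/ep mice and Tef 0.56 ± 0.18 higher, and Bhlhe40 was 0.56 ± 0.14 lower, with adjusted p of 0.204, 0.24 and 0.227 from limma. These 3 of 9 members separated, against 16.6% of all genes, 4 passed the threshold unadjusted, the fourth being Ciart, against 17.9%, and 0 passed adjusted, against 0.0249%. Without Mrps12ha/ha mouse 2 the adjusted p was 0.0236 for Dbp and 0.0189 for Bhlhe40, and with array weights 0.00819 and 0.033 for these genes and 0.0349 for Bhlhe41. Of all genes 23.2% passed the adjusted threshold without that mouse and 39.3% with array weights. In the liver Bhlhe41, Wee1, Dbp and Tef were higher in every Mrps12ha/ha mouse than in every Mrps12ep/ep mouse, at log2 fold changes of 1.55, 1.29, 0.97 and 0.36, and Nfil3 was lower in every one, at -0.93 ± 0.30 (SE). These 5 of 9 members separated, against 17.8% of all genes, the same number passed unadjusted, against 8.62%, and 0 passed adjusted, against 0.00653%. For Bhlhe41 the nearest mice of the 2 groups rested on 75 reads each, and their order came from the scaling of the columns. Nfil3 had an adjusted p = 0.48 from limma, and 0.0415 when only these 2 genotypes were fitted, where 0.118% of all genes passed, in a range of 0.0415 to 0.912. The ratio of Dbp to Nfil3 was 1.15 higher in Mrps12ha/ha than in Mrps12ep/ep hearts and 1.90 higher in the livers, with no overlap and p = 0.1 in the exact permutation test.

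The core clock was examined beside its outputs, with a list of 13 genes. In Mrps12ha/ha hearts the activators Arntl, Clock and Npas2 were lower in every mouse than in any Mrps12+/+ mouse, and the repressors Per2 and Per3 and the receptors Nr1d1 and Nr1d2, which hold Arntl down through ROR elements, were higher in every mouse. The repressor Per1 went the other way, at 3932 ± 366.5 (SD, n = 3) against 5026 ± 834.1 normalized counts, with overlap. Its unadjusted p from limma was under the threshold. Arntl had 604.5, 525.2 and 406.3 normalized counts in Mrps12+/+, 479.5, 752.1 and 515.8 in Mrps12ep/ep and 263.2, 238.6 and 354.1 in Mrps12ha/ha hearts, a log2 fold change of -0.84 ± 0.23 (SE) with an adjusted p = 0.191 from limma. Of the 13 genes 9 had an unadjusted p under the threshold, against 19.7% of all genes, and 0 an adjusted one, with 6 estimates above 0 and 7 below. The largest differences were those of Rorb, -1.14 ± 0.35 (SE), and Npas2, -0.98 ± 0.33. In the liver 12 of the 13 genes were tested, Rorb being listed at 0, and 9 estimates were above 0. There Per3, Cry2, Nr1d1 and Nr1d2 were higher and Clock lower in every Mrps12ha/ha mouse, 4 of 12 had an unadjusted p under the threshold, against 14.1% of all genes, and 0 an adjusted one. Per3 led with 1399 ± 77.3 (SD, n = 3) against 579.6 ± 171 normalized counts, a log2 fold change of 1.31 ± 0.28 (SE) with an adjusted p = 0.119 from limma. Arntl in the liver had 325.3, 135 and 83.2 normalized counts in Mrps12+/+ and 140.4, 208.9 and 172.6 in Mrps12ha/ha mice, so that 1 wild-type mouse was far above the other pair and the groups overlapped. In Mrps12ep/ep mice only Nr1d1 in the heart (0.40 ± 0.13 SE) and Cry1, Rora and Cry2 in the liver had an unadjusted p under the threshold, against 1.69% and 9.74% of all genes, none of them an adjusted one. In the test between the mutants, among genes with an unadjusted p under the threshold, Npas2 and Arntl had the largest estimates in the heart, at -1.12 and -1.02, and Per3 and Cry1 in the liver, at 1.177 and -0.58. In that liver test Npas2 and Arntl had estimates of -1.81 and -0.71 and did not pass it.

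The log2 ratio of Dbp to Arntl set the transcript of an output against that of a clock activator, and the activity of the ARNTL protein was not measured. The ratio was 1.89 ± 0.32 (SD, n = 3) in Mrps12+/+, 1.80 ± 0.54 in Mrps12ep/ep and 3.82 ± 0.69 in Mrps12ha/ha hearts. The Mrps12ha/ha hearts did not overlap with the others, and the difference from Mrps12+/+ was 1.93 with p = 0.1 in the exact permutation test. In the liver the ratio was 4.55 ± 1.495, 3.85 ± 0.63 and 5.52 ± 0.09 in the same order. There the difference from Mrps12+/+ of 0.97 did not exceed the spread (exact p = 0.4). It rested on single Mrps12+/+ mice, being 0.14 without mouse 1 (exact p = 0.8) and 1.57 with no overlap without mouse 3 (exact p = 0.1). The difference of Mrps12ha/ha from Mrps12ep/ep livers, 1.68, had no overlap (exact p = 0.1). The difference of Mrps12ep/ep from Mrps12+/+ was -0.09 in the heart (exact p = 0.8) and -0.70 in the liver (exact p = 0.5).

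Genes known to respond to PAR-bZIP factors were divided in the liver. Of a list of 8, 3 were higher in every Mrps12ha/ha mouse, namely the cytochromes P450 Cyp2a5 and Cyp2b10 and the xenobiotic receptor Nr1i3 (CAR), and Cyp7a1, the rate-limiting enzyme of bile acid synthesis, was lower in every mouse. Of all genes 19.9% separated these groups in either direction. Cyp2a5 had 50190 ± 5508 (SD, n = 3) normalized counts in Mrps12ha/ha against 16170 ± 5962 in Mrps12+/+ livers, a log2 fold change of 1.71 ± 0.27 (SE) with an adjusted p = 0.0722 from limma. It was also higher in every Mrps12ep/ep liver, at 40080 ± 7028 and a log2 fold change of 1.38, where the groups overlapped for Dbp. Only this gene of the 8 separated Mrps12ep/ep from Mrps12+/+ livers, where 12.8% of all genes separated. Cyp2a4, Cyp2a5 and Cyp2b10 belong to a gene cluster near Mrps12, and the part of this position in their differences was not tested. Cyp2b10 was 1.72 ± 0.55 (SE) higher on the log2 scale in Mrps12ha/ha livers, and Cyp7a1 was -2.21 ± 0.59, at 612.2 ± 186 against 2987 ± 1452 normalized counts. Cyp7a1 had a log2 fold change of -1.41 ± 0.59 in Mrps12ep/ep livers with overlap, and Cyp2a4, whose sequence is nearly that of Cyp2a5 so that reads may be split between them, was the largest difference between the mutants at -3.21 ± 1.05. Of the 8 genes 3 passed the threshold unadjusted against Mrps12+/+ in Mrps12ha/ha livers, 4 in Mrps12ep/ep livers and 1 between the mutants, against 14.1%, 9.74% and 8.62% of all genes, and 0 adjusted. In the heart 6 of the 8 were tested, and Cyp2b10, a gene of low level there, was the only one with an unadjusted p under the threshold against Mrps12+/+, at -2.42 ± 0.70 in Mrps12ha/ha mice, where 19.7% of all genes had one.

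Of 6 other clock-controlled genes, Klf10 (TIEG1) and Klf9 separated Mrps12ha/ha from Mrps12+/+ mice in both tissues, Klf10 in the same direction and Klf9 in opposite ones. In the heart 2 of the 6 were higher and 2 lower in every Mrps12ha/ha mouse, where 21.2% of all genes separated. In the liver 2 were higher and 0 lower, where 19.9% of all genes separated. Klf10 had 1269 ± 317 (SD, n = 3) normalized counts in Mrps12ha/ha, 846.8 ± 44.4 in Mrps12ep/ep and 588.4 ± 50.4 in Mrps12+/+ hearts, and the log2 fold change of Mrps12ha/ha against Mrps12+/+ was 1.08 ± 0.17 (SE) with an adjusted p = 0.0943 from limma. In the liver it was 0.86 ± 0.25 (SE) higher. Tspan4 was higher in every Mrps12ha/ha heart (0.67 ± 0.27 SE), Tsc22d3 lower in every one (-0.46 ± 0.20 SE), and Klf9 was lower in every Mrps12ha/ha heart (-0.38) and higher in every Mrps12ha/ha liver (0.49). In the liver Klf15 was higher in Mrps12ep/ep than in Mrps12+/+ mice (0.51 ± 0.21 SE) and lower in Mrps12ha/ha than in Mrps12ep/ep mice (-0.94 ± 0.21 SE), and Tsc22d3 was lower between the mutants as well (-1.28 ± 0.35 SE). For Mrps12ha/ha against Mrps12+/+, 4 of 6 of these genes passed the threshold unadjusted in the heart, against 19.7% of all genes, and 2 of 6 in the liver, against 14.1%, and 0 adjusted.

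Signals that reset or accompany the clock were counted for the same comparison. Of all genes 19.7% passed unadjusted in the heart and 14.1% in the liver, with a median log2 fold change of -0.02 in each. Of 8 immediate early genes 3 passed unadjusted in the heart, namely Atf3, Jun and Nr4a1, all with estimates below 0. In the liver 3 passed, of which Fos (-0.95) and Jun (-0.69) were lower in every Mrps12ha/ha mouse and Ier2 had an estimate above 0 (0.49) with overlap, and Nr4a1 (-0.90) did not pass although its groups did not overlap. The medians of the 8 were -0.49 and -0.46 on the log2 scale. Of 6 glucocorticoid-induced genes 2 passed unadjusted in the heart, Tsc22d3 and Per1, and 1 in the liver, Sgk1, with medians of -0.14 and -0.52. Tsc22d3 and Per1 were already counted in the lists of clock genes above. Of the hypoxia-induced genes 1 of 6 tested in the heart and 0 of 7 in the liver did so, with medians of -0.06 and 0.14, and no gene of these lists passed adjusted.

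The members were also set against Dbp mouse by mouse. The Mrps12ha/ha mice held the 3 highest Dbp values in both tissues and so form a cluster of their own, and the relations of the members are therefore given without them. Over the 6 Mrps12+/+ and Mrps12ep/ep mice, a choice made after the values were seen, 16 relations were computed, 8 in each tissue. In the liver Pearson's r with Dbp was 0.82 for Hlf, 0.82 for Usp2 and 0.80 for Tef, with exact permutation p of 0.0361, 0.0417 and 0.0458 and an adjusted p of 0.244 for each, and Spearman's rho was 0.89, 0.71 and 0.83, with exact permutation p of 0.0333, 0.136 and 0.0583 and adjusted p of 0.311, 0.544 and 0.311. Without the 2 mice farthest from the median of Dbp the r over 4 mice was 0.77, 0.63 and 0.87. The r of Wee1 was 0.69, that of Ciart 0.63 and that of Bhlhe40 0.62, while that of Nfil3 was -0.02. In the heart r ran from -0.30 for Nfil3 to 0.26 for Bhlhe40, with an adjusted p of at least 0.944 from the exact permutation test. No relation passed the adjusted threshold in either tissue, and the difference between the tissues was not tested.

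As a description of likeness over all genes whose mean was 100 normalized counts or more, Pearson's r with Dbp over the 9 hearts was highest for Grhl2 (0.98), followed by Naa10, Sybu, Riox1 and Yipf3, and lowest for Dcun1d3 (-0.97), followed by Gtf2e2. Over the 9 livers it was highest for Zbed5 (0.98), with Stard5, 2810013P06Rik and Srbd1 also near the top, and lowest for Atp1b1 (-0.98), followed by Ippk. These lie at the extremes among 11897 and 11294 genes, and the high Dbp of the Mrps12ha/ha mice weighs in all of them. No gene was named in both tissues.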

How the data were processed

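RNA from hearts and livers of 3 mice per genotype had been sequenced on the Illumina platform with 3 technical libraries per mouse. Per the labels and the study's methods, the authors trimmed reads with Trim Galore 0.4.1 and cutadapt 1.18, quantified GENCODE vM21 transcripts with Salmon 1.1.0, summed them by gene, left out mitochondrial transcripts and normalized the counts with DESeq2. The deposited normalized counts were used as they stand, 1 column per mouse and 9 per tissue. The authors' 4 tables of fold changes and p-values were not used. Low values in every column were whole multiples of 1 step (100.0% within 0.1 reads), which gave the depth. The reads recovered in this way served for the depth and for limma-voom, and no other count model was fitted.

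The log2(normalized count + 1) of genes with a mean of at least 10 was fitted with limma 3.58.1 in R 4.3.3 (lmFit, eBayes with trend, all 3 genotypes of a tissue together), with Benjamini-Hochberg adjustment over all tested genes, after a test on simulated data. Exact permutation tests were two-sided. RPKM used exon lengths of GENCODE vM21 on GRCm38. Groups came from the sample labels. The members and gene lists were chosen with earlier results of these data known. Named are the 9 members, Arntl and Mrps12, from the core clock, PAR-bZIP target and other clock-controlled lists in each comparison the 2 genes of unadjusted p under 0.05 whose estimate was farthest from 0, and the 5 genes most like and 3 least like Dbp, some of which are not reported here. Other genes of the lists were named, after their values were seen, because their groups did not overlap or their unadjusted p was under the threshold, and Sphk2 because it overlaps Dbp. Mrps12, whose alleles differ in sequence and not by deletion, had log2 fold changes of 0.23 in Mrps12ha/ha hearts and 0.12 in Mrps12ha/ha livers against Mrps12+/+ (adjusted p of 0.324 and 0.609 from limma). Alternatives were pseudocounts of 0.1 and 8, no filter, a mean of at least 50, quantile normalization, array weights, a block for the replicate number, fits of 2 genotypes, leaving out each mouse, and, added after the data were seen, limma-voom on recovered reads. The limma p-values set the differences of genotype means against the spread between these mice.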

Additional observations from a re-analysis of the deposited data

Results flagged for a closer look

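A few genes (3) lay on opposite sides of Mrps12+/+ in the 2 tissues, with every Mrps12ha/ha mouse lower in the heart and every Mrps12ha/ha mouse higher in the liver. The search covered only the genes of the lists, a few others looked up by name, and those most and least like Dbp. The share of all genes that meet this condition was not counted. Klf9, a clock-controlled Krüppel-like factor, had log2 fold changes of -0.38 in hearts and 0.49 in livers. Cyp2b10, a PAR-bZIP target, had -2.42 in the heart, where it had 20.2 ± 6.38 (SD, n = 3) against 153 ± 128 normalized counts, and 1.72 in the liver. Sphk2, which overlaps Dbp on the opposite strand, had -0.29 in hearts and 0.27 in livers. The difference between the tissues was not tested for any of them. None of the 9 clock output genes met this condition. No rule for single outlying mice was applied to groups of 3, and fits that left out each mouse are given below.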

How the results depend on the processing

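No member passed the adjusted threshold in any comparison as reported, and this count of 0 held in 51 of 54 fits that left out a mouse and 51 of 54 under other settings. With array weights 2 of 9 members passed for Mrps12ha/ha against Mrps12+/+ hearts, where 34.7% of all genes did, and 3 of 9 for Mrps12ha/ha against Mrps12ep/ep hearts, where 39.3% did. With only the 2 genotypes fitted 1 passed for Mrps12ha/ha against Mrps12ep/ep livers, where 0.118% of all genes did. Leaving out single mice gave 0 to 2 members in both of these heart comparisons and 0 to 1 for Mrps12ha/ha against Mrps12+/+ livers, and the highest counts came without Mrps12ha/ha mouse 2 in the heart (27% and 23.2% of all genes passing) and without Mrps12+/+ mouse 2 in the liver (0.588%). The number of members whose groups did not overlap ran from 3 to 6 in the first and from 3 to 5 in the second heart comparison, and from 1 to 3 in the heart and 0 to 2 in the liver for Mrps12ep/ep against Mrps12+/+, beside 26.1% to 58.3%, 20.4% to 51.3%, 13.4% to 22.5% and 19.0% to 30.6% of all genes. The cause was not tested beyond the mouse left out.

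Estimates near 0 changed sign. For Mrps12ha/ha against Mrps12+/+ hearts Hlf was -0.41 with array weights and -0.034 with limma-voom, and Ciart -0.06 with array weights. In the liver Ciart was -0.00026 with array weights and -0.013 with limma-voom. Leaving out single mice gave -0.28 to 0.36 for Hlf, -0.43 to 0.018 for Nfil3, -0.16 to 0.32 for Ciart, -0.39 to 0.017 for Bhlhe41 and -0.41 to 0.021 for Wee1 in the heart, and -0.15 to 0.20 for Ciart in the liver. For Mrps12ep/ep against Mrps12+/+ Tef was 0.03 in the heart with array weights, and leaving out single mice gave -0.019 to 0.20 for Dbp and -0.20 to 0.086 for Tef in the heart and -0.14 to 0.47 for Dbp in the liver. Of the 31 member fold changes given, these 9 changed sign, and for Mrps12ha/ha against Mrps12+/+ Dbp, Tef and Bhlhe40 in the heart and the 6 members that separated in the liver did not. The log2 ratio for Mrps12ep/ep against Mrps12+/+ ran from -0.32 to 0.21 for Dbp to Arntl in the heart, and for Dbp to Nfil3 from -0.14 to 0.48 in the heart and from -0.64 to 0.35 in the liver. Of the 16 relations of Dbp with other members, 6 passed over all 9 mice, 0 without the 2 mice farthest from the median of Dbp and 0 over the 6 Mrps12+/+ and Mrps12ep/ep mice.

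The replicate numbers were not treated as pairs in the main tests. Same-numbered mice deviated together with correlations from -0.23 to 0.69. The highest were those of mice 1 and 2 in Mrps12ep/ep against Mrps12+/+ hearts, at 0.69 and 0.47, each the best match of its mouse. For mouse 3 of that comparison the correlation was -0.008. With the number as a block 0 members passed in every comparison, the adjusted p of Dbp for Mrps12ha/ha against Mrps12+/+ was 0.117 in the heart and 0.0835 in the liver, and the ratio of Dbp to Nfil3 was 1.32 and 1.69. TMM scaling, edgeR and DESeq2 on recovered reads were not run. Depth limits Bhlhe41 in the liver most.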
